A study of Mus musculus with 3 samples.

Results

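MyoFB-Int is the name the depositors gave to the myofibroblasts they placed between an immature type, MyoFB-IMR, and a terminal type, MyoFB-Ter, in the lung mesenchyme of mouse pups. Its members were all cells whose deposited cell type is MyoFB-Int, 2147 of the 6142 cells of the series, in every sort gate. Pups carried the alleles Fgf18CreERT2/+ (Cre, active after tamoxifen, expressed from Fgf18), ROSATDTomato/+ (a red reporter that Cre switches on) and PdgfrαEGFP/+ (a green reporter of Pdgfra), so every group described here has all 3 alleles. They received tamoxifen from postnatal day 2 to day 5, and lungs were taken at postnatal day 7. Enzymatically dissociated live cells were sorted by reporter, and each of 3 gates gave 1 droplet library: GFP-high tdT-high, GFP-high tdT-negative and GFP-low tdT-negative. Below, the tdT-high and tdT-negative gates are the GFP-high ones, and the remaining one is called the GFP-low gate. The labels do not say how many pups went into each library.

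Alveolar myofibroblasts are contractile fibroblasts that form at the tips of the septa dividing the neonatal air spaces. They arise from cells that express Pdgfra, the receptor for the ligand PDGF-A made by the epithelium, and they are known for laying down elastin, whose fibres give the septum its recoil. Fgf18 is a growth factor gene of the neonatal lung mesenchyme, so a tdTomato label switched on by Cre from its locus marks cells that used that locus around the time of tamoxifen.

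MyoFB-Int was the largest type of both GFP-high gates and rare in the other. It made up 801 of 1511 cells in the tdT-high gate (53.0%, exact Clopper-Pearson 95% interval 50.5 to 55.6), 1324 of 3347 in the tdT-negative gate (39.6%, 37.9 to 41.2) and 22 of 1284 in the GFP-low gate (1.71%, 1.08 to 2.58). The gates themselves set these shares in part. The neighbouring types held 467 (MyoFB-IMR) and 190 (MyoFB-Ter) cells in the tdT-high gate, 1032 and 303 in the tdT-negative gate and 21 and 23 in the GFP-low gate. All other types together, called non-MyoFB here, held 53, 688 and 1218 cells in the same order of gates.

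Summed over its cells, MyoFB-Int had 18256846 UMIs (unique molecular identifiers, counted transcripts) in the tdT-high gate, 26955486 in the tdT-negative gate and 515097 in the GFP-low gate, and its median cell had 22244, 19459.5 and 22141 UMIs. Levels are summed UMIs per 1000000 UMIs of the same cells (CPM). Each gate has a single library and so no replicate, and the types were named from these same cells, so every difference below is a description without a test. Intervals are exact 95% intervals that cover counting error only. The libraries differed in the ribosomal RNA feature Rn18s-rs5, at 53549 CPM in tdT-high and 27227 CPM in tdT-negative MyoFB-Int, and in Cdk8, at 4729 and 1314 CPM; the part of this in the results was not tested. Between libraries, 4 cell barcodes recurred, and no such pair had MyoFB-Int on both sides.

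The 5 genes given as its markers did not all separate MyoFB-Int from its neighbours. Elastin (Eln, chromosome 5, 134702593 to 134747323, GRCm38) stood at 15714 CPM in MyoFB-Int of the tdT-high gate (15657 to 15772), against 6507 CPM in MyoFB-IMR, 14246 CPM in MyoFB-Ter and 3699 CPM in non-MyoFB cells. Its level in the tdT-negative gate was 7131 CPM in MyoFB-Int (7099.6 to 7163), against 3239, 10556 and 4292 CPM in the same order of types. Eln was thus 2.41-fold (2.40 to 2.43) and 2.20-fold (2.18 to 2.22) over MyoFB-IMR in the tdT-high and tdT-negative gates, while over MyoFB-Ter it was 1.10-fold (1.09 to 1.11) in one and 0.676-fold (0.669 to 0.682) in the other.

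Cdh4, a cadherin first known from retina (chromosome 2, 179442431 to 179899373), had 303 CPM in MyoFB-Int, 52.2 in MyoFB-IMR and 598 in MyoFB-Ter of the tdT-high gate, and 110.2, 15.2 and 292 CPM in the tdT-negative gate. It was therefore 5.79-fold (5.31 to 6.32) and 7.25-fold (6.44 to 8.17) over MyoFB-IMR, with MyoFB-Ter highest in both gates. Pappa2, a secreted protease that cleaves IGF-binding proteins (chromosome 1, 158711727 to 158980490), had 205 CPM in MyoFB-Int, 29.0 in MyoFB-IMR and 149 in MyoFB-Ter of the tdT-high gate, and 103, 12.4 and 102 CPM in the tdT-negative gate. The excess of Pappa2 over MyoFB-IMR was 7.06-fold (6.29 to 7.94) and 8.34-fold (7.32 to 9.52). Against MyoFB-Ter it was 1.37-fold (1.26 to 1.50) in the tdT-high gate, while the interval in the tdT-negative gate, 0.924 to 1.11, held no difference.

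Egfem1 and Csmd1 were higher in MyoFB-Int than in the pooled non-MyoFB cells and lower than in MyoFB-IMR. Egfem1, which encodes an EGF-like domain protein (chromosome 3, 29082023 to 29691209), was at 8749 CPM in MyoFB-Int, 10734 in MyoFB-IMR and 2691 in MyoFB-Ter of the tdT-high gate, and at 11176, 11896 and 8727 CPM in the tdT-negative gate. Csmd1, a large membrane protein with CUB and sushi domains (chromosome 8, 15892537 to 17535586), was at 1442, 1664 and 1384 CPM and at 1606, 2082 and 1525 CPM. Against non-MyoFB cells of the tdT-negative gate, at 2150.1 CPM of Egfem1 and 419.9 CPM of Csmd1, they were 5.20-fold (5.14 to 5.26) and 3.83-fold (3.73 to 3.93) higher in MyoFB-Int. The dividing type DivFB-S/G2M of that gate was nearer, and over it Egfem1 was 1.40-fold (1.38 to 1.42) and Csmd1 1.16-fold (1.12 to 1.21) higher.

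Counting cells gave the same picture for the less abundant markers. After thinning every cell to 5000 UMIs, Cdh4 was seen in 52.8% of tdT-high and 23.6% of tdT-negative MyoFB-Int cells, against 14.6% and 4.46% of MyoFB-IMR and 80.0% and 52.8% of MyoFB-Ter cells. Pappa2 was seen in 40.4% and 20.5% of MyoFB-Int cells, against 8.57% and 3.49% of MyoFB-IMR and 35.8% and 22.1% of MyoFB-Ter cells. In AdvFB, an adventitial fibroblast type of the tdT-negative gate, the shares were 5.18% for Cdh4 and 3.05% for Pappa2, near the MyoFB-IMR shares there. In non-MyoFB cells of the GFP-low gate they were 0.821% and 1.31%. Whether any of these shares is background was not tested. Median depth before thinning was 19459.5 UMIs in MyoFB-Int, 19460.5 in MyoFB-IMR, 16669 in MyoFB-Ter and 24677.5 in AdvFB of the tdT-negative gate. Without thinning, 38.0% of tdT-negative MyoFB-Int cells had a Cdh4 UMI and 33.7% a Pappa2 UMI.

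**Figure D1:**
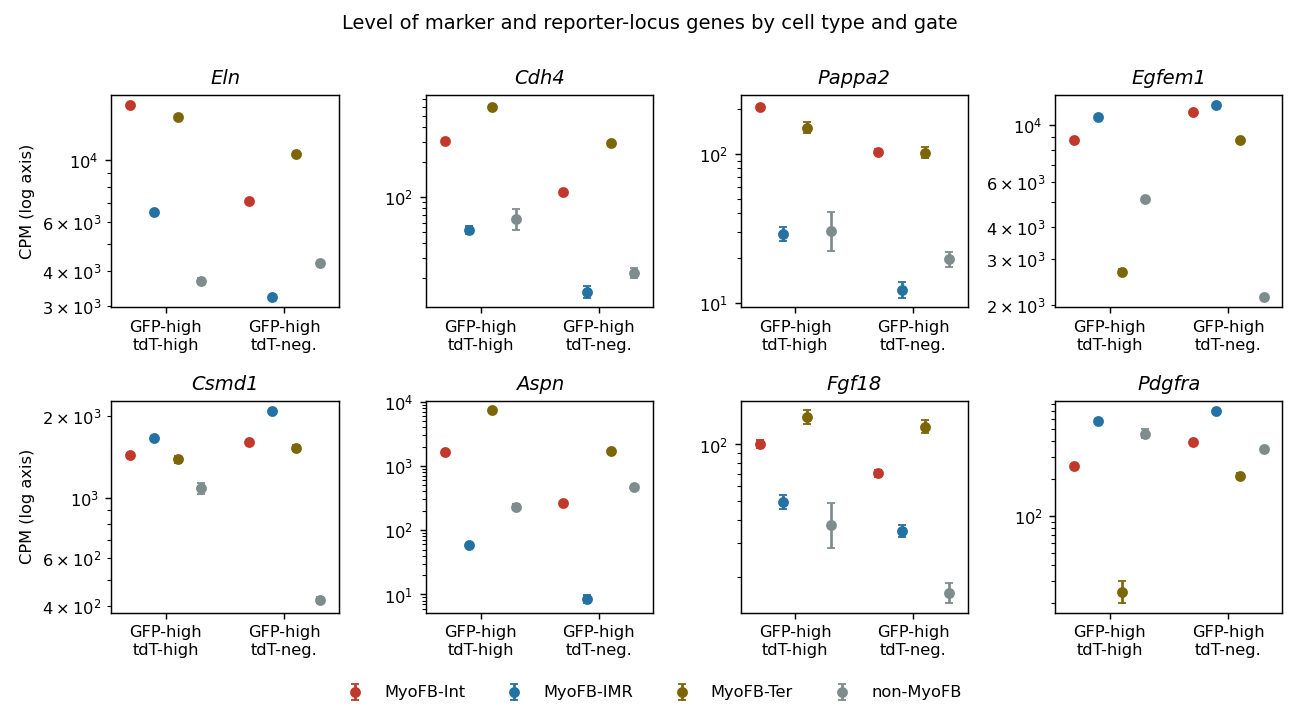
CPM on a log axis of the 5 marker genes and of Aspn, Fgf18 and Pdgfra, by cell type (colour) in the 2 GFP-high gates, with exact 95% Poisson intervals as bars. MyoFB-Int lies between MyoFB-IMR and MyoFB-Ter for Cdh4, Aspn, Fgf18 and Pdgfra in both gates, while its Eln level is above both in the tdT-high gate (15714 CPM) and between them in the tdT-negative gate (7131 CPM).

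Genes of the sorted loci followed the order of the types. Pdgfra had 252 CPM in MyoFB-Int, 587 in MyoFB-IMR and 24.6 in MyoFB-Ter of the tdT-high gate, and 390.4, 699 and 209 CPM in the tdT-negative gate. The reporter transcript H2BGFP had 85.2, 255 and 7.51 CPM, and 177, 340.2 and 83.4 CPM. Fgf18 ran the other way, at 101 CPM in MyoFB-Int, 49.5 in MyoFB-IMR and 139.6 in MyoFB-Ter of the tdT-high gate and 70.4, 35.0 and 124 CPM in the tdT-negative gate. CreERT2, listed as a gene of its own, had 34.1, 13.5 and 43.8 CPM and then 23.8, 11.0 and 40.5 CPM. In both gates MyoFB-Int lay between its neighbours for all 4 transcripts.

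MyoFB-Ter was not alike in the 2 gates, which bears on each ratio set against it. A Pdgfra UMI was present in 88.8% of tdT-high and 95.6% of tdT-negative MyoFB-Int cells, in 24.2% and 82.8% of MyoFB-Ter cells, and in 99.4% and 99.6% of MyoFB-IMR cells. With MyoFB-Ter limited to its cells with a Pdgfra UMI, Eln of tdT-high MyoFB-Int was below MyoFB-Ter (log2 -0.10, against 0.14 with all cells), and so was Pappa2 of tdT-negative MyoFB-Int (-0.08, against 0.02). Hhip, an inhibitor of hedgehog ligands, had 284 CPM in MyoFB-Int, 161 in MyoFB-IMR and 1468 in MyoFB-Ter of the tdT-high gate, and 86.4, 85.3 and 319 CPM in the tdT-negative gate.

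Across genes, MyoFB-Int differed from each neighbour by at least 2-fold for few genes. Over MyoFB-IMR, 109 of 3971 genes were higher in the tdT-high gate (2.74%) and 74 lower (1.86%), and in the tdT-negative gate 75 of 4065 were higher (1.85%) and 44 lower (1.08%). A gene entered if it had 50 CPM and a UMI in 10% of cells of the higher group. Over MyoFB-Ter, 122 of 3923 genes were higher in the tdT-high gate (3.11%) and 137 lower (3.49%), against 21 of 3995 higher (0.526%) and 36 lower (0.901%) in the tdT-negative gate. The non-MyoFB cells of the tdT-negative gate stood further off, with 305 of 4305 genes higher in MyoFB-Int (7.08%) and 440 lower (10.2%).

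**Figure D2:**
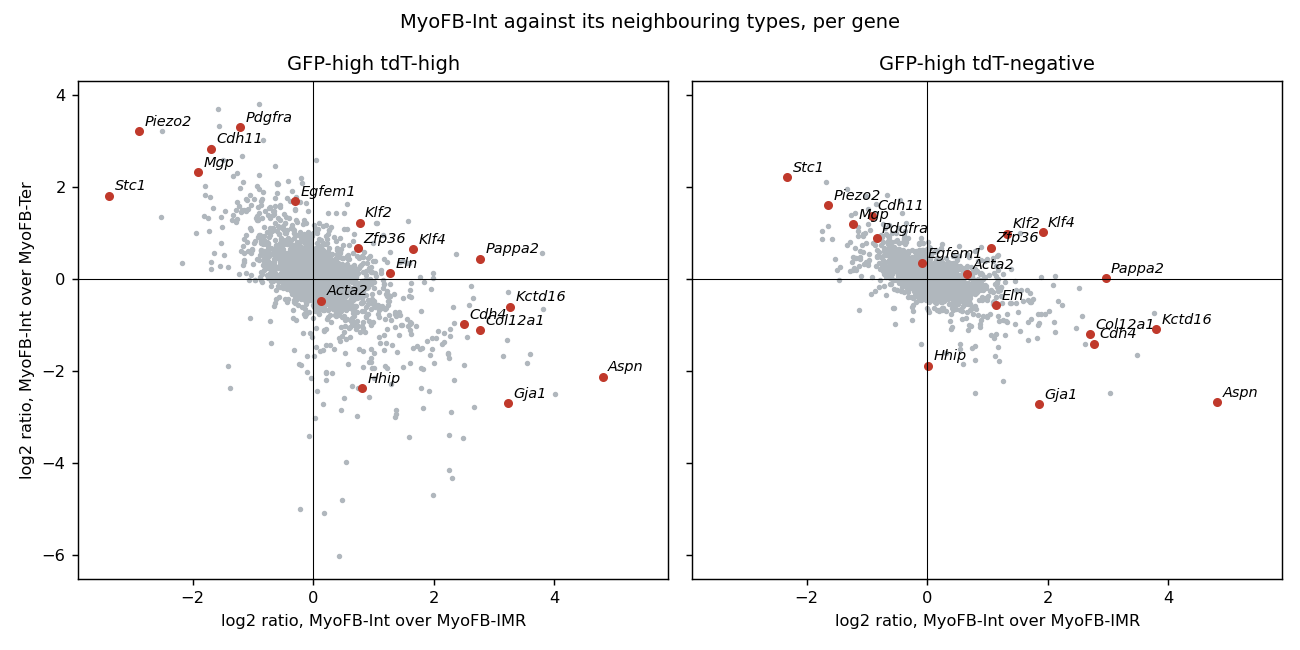
Each point is a gene (red where labelled) with at least 50 CPM in one of the 3 MyoFB types, placed by its log2 ratio of MyoFB-Int over MyoFB-IMR (x axis) and over MyoFB-Ter (y axis), in the tdT-high gate (left) and the tdT-negative gate (right). The axes share the MyoFB-Int values; Aspn lies far to the right and low (4.81 and -2.12 in the tdT-high gate), and Klf2, Klf4 and Zfp36 lie above 0 on both axes in both gates.

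For genes that separated MyoFB-Ter from MyoFB-IMR, MyoFB-Int was nearly always in between. Of the 130 genes at least 2-fold higher in MyoFB-Ter than in MyoFB-IMR in both GFP-high gates, 117 had their MyoFB-Int level between the 2 in both gates. Of the 118 genes at least 2-fold higher in MyoFB-IMR, 117 did. On a log2 scale where MyoFB-IMR is 0 and MyoFB-Ter is 1, the median place of MyoFB-Int for the first set was 0.65 in the tdT-high gate (quartiles 0.54 and 0.78) and 0.60 in the tdT-negative gate (0.47 and 0.73). For the second set it was 0.49 (0.38 and 0.61) and 0.49 (0.41 and 0.59). These genes were chosen on the neighbours, and the types were called from the same cells, so the places describe the annotation and carry no test.

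The 14 exceptions are few enough to name, although they were chosen after their values were seen. Pappa2 and Pdlim1, a cytoskeletal adaptor of the PDZ-LIM family, passed the MyoFB-Ter level in both gates. Their places were 1.20 and 1.16 in the tdT-high gate and 1.01 and 1.03 in the tdT-negative gate. For Pappa2 in the tdT-negative gate this was close to a tie (log2 0.02 over MyoFB-Ter). Its sign turned after thinning (-0.08), in cells with Y-linked UMIs and no Xist (-0.10) and against MyoFB-Ter cells with a Pdgfra UMI (-0.08). Eln, Ogn, Itih5, Prnp, Pak3, Hsph1, Peg3, Prss35 and Pgf passed the MyoFB-Ter level in the tdT-high gate only. Eln was at a place of 1.13 there and 0.67 in the tdT-negative gate. Fos passed the MyoFB-Ter level in the tdT-negative gate only, at 1.19. Hpse2 fell just outside on the MyoFB-IMR side in the tdT-negative gate (-0.08), and Hacd2, of the set higher in MyoFB-IMR, just passed MyoFB-Ter in the tdT-high gate (1.02).

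**Figure D3:**
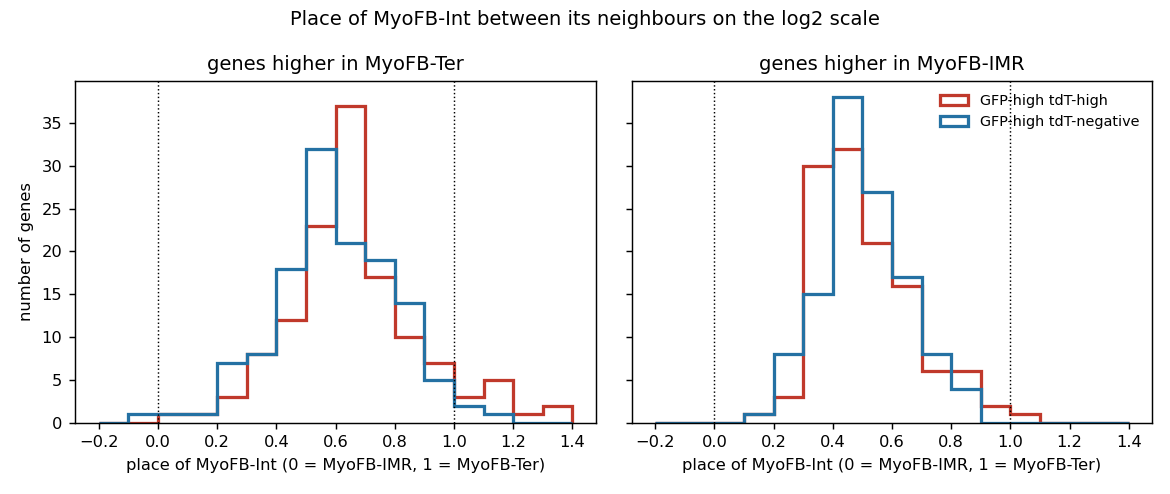
Number of genes by the place of MyoFB-Int between MyoFB-IMR (0) and MyoFB-Ter (1) on the log2 scale, for genes 2-fold higher in MyoFB-Ter (left, 130 genes) or in MyoFB-IMR (right, 118 genes) in both gates; dotted lines mark the neighbours. Nearly all genes lie between the lines, with medians of 0.65 and 0.60 on the left and 0.49 and 0.49 on the right for the tdT-high and tdT-negative gates.

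Among genes with at least 50 CPM in the higher group, Aspn had the highest log2 ratio over MyoFB-IMR in both gates (4.81 and 4.81). This gene encodes asporin, a small leucine-rich matrix protein, and had 1673 CPM in MyoFB-Int, 58.8 in MyoFB-IMR and 7272 in MyoFB-Ter of the tdT-high gate, and 268, 8.59 and 1708 CPM in the tdT-negative gate. It was 28.4-fold (26.3 to 30.8) and 31.3-fold (26.9 to 36.5) over MyoFB-IMR and at 0.230-fold and 0.157-fold of MyoFB-Ter. Ogn, another leucine-rich matrix protein gene on the same stretch of chromosome 13, had 164 CPM in MyoFB-Int, 10.9 in MyoFB-IMR and 109 in MyoFB-Ter, and 58.4, 4.32 and 184 CPM in the tdT-negative gate. Both genes lie inside the annotated span of Cenpp (49464023 to 49652785), which had 135, 29.9 and 359.9 CPM in the tdT-high gate and 69.9, 20.4 and 127 CPM in the tdT-negative gate, so how reads were shared among these genes is uncertain.

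The rest of the 10 highest were Kctd16, Pappa2, Col12a1, Adam33, Cdh4, Itih5, Nox4 and Pcdh7. Kctd16, an auxiliary subunit of GABA-B receptors in neurons, had 891 CPM in MyoFB-Int, 91.3 in MyoFB-IMR and 1347 in MyoFB-Ter of the tdT-high gate, and 322, 22.1 and 683 CPM in the tdT-negative gate. Nox4, an NADPH oxidase that makes hydrogen peroxide, had 541, 107 and 821 CPM and 264, 60.6 and 504 CPM. Col12a1, a fibril-associated collagen, had a log2 ratio of 2.78 and 2.70 over MyoFB-IMR and of -1.11 and -1.19 over MyoFB-Ter. Apart from Pappa2, Ogn and Itih5, all of these had their highest level in MyoFB-Ter of both gates.

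The 10 lowest over MyoFB-IMR were Stc1, Tafa1, Piezo2, Adcy10, Cc2d2b, Gpc6, Cdkl4, Zmat4, Klhl2 and Mgp. Stc1, a secreted glycoprotein hormone, had 9.80 CPM in MyoFB-Int, 112 in MyoFB-IMR and 2.07 in MyoFB-Ter of the tdT-high gate, and 37.1, 189.9 and 7.16 CPM in the tdT-negative gate. Piezo2, a mechanically gated channel, had 32.5, 248 and 2.59 CPM, and 119, 377 and 38.4 CPM. Mgp, an inhibitor of calcification that is also known to bind BMPs, had 1306, 4929 and 259 CPM, and 2131, 5009.9 and 927 CPM. For these 3 MyoFB-Int lay between its neighbours. Gpc6, a glypican, did not in the tdT-high gate, with 34.1 CPM in MyoFB-Int, 92.4 in MyoFB-IMR and 128 in MyoFB-Ter.

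Set against MyoFB-Ter, the 10 highest were Col24a1, Cdh11, Jade1, Cd34, Mgp, Tmem178, Ubash3b, H2BGFP, Tafa1 and Gramd1b. Cdh11, a mesenchymal cadherin, had 189 CPM in MyoFB-Int, 25.6 in MyoFB-Ter and 617 in MyoFB-IMR of the tdT-high gate, and 417, 159 and 783 CPM in the tdT-negative gate. All 10 were higher still in MyoFB-IMR of both gates. The 10 lowest were Gja1, Aspn, Hhip, Ak5, Col14a1, Postn, Thrb, Rgs5, Fhod3 and Vcan. Gja1, the gap junction protein connexin 43, had 66.0 CPM in MyoFB-Int, 433 in MyoFB-Ter and 6.12 in MyoFB-IMR of the tdT-high gate, and 11.4, 80.0 and 2.40 CPM in the tdT-negative gate. Postn, a matricellular protein, had 113, 820.5 and 43.2 CPM, and 36.6, 126 and 20.8 CPM.

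Elastic fibre genes at least 1.5-fold apart in both gates were more often higher than lower against MyoFB-IMR, and against MyoFB-Ter all of them were lower. A list member counted as higher or lower when it was at least 1.5-fold apart in the same direction in both GFP-high gates, with at least 10 UMIs in either group of each gate. Over all 18483 genes with that many UMIs, 2.6% were higher and 6.17% lower over MyoFB-IMR, and over all 3821 genes with at least 50 CPM 4.11% were higher and 2.77% lower. Of 22 measured elastic fibre genes, 8 were higher (Eln, Fbln5, Mfap4, Mfap5, Ltbp1, Lox, Loxl1 and Loxl2) and 2 lower (Fbln1 and Adamtsl2), with a median log2 ratio of 0.34 against -0.08 over all genes. Lox, the enzyme that cross-links elastin and collagen, had 131 CPM in MyoFB-Int, 41.7 in MyoFB-IMR and 138 in MyoFB-Ter of the tdT-high gate, and 73.3, 21 and 99.4 CPM in the tdT-negative gate. Loxl2, of the same family, had 650.1 CPM, 278 CPM and 769 CPM in that order of types, and 437 CPM, 166 CPM and 620.4 CPM in the tdT-negative gate.

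Over MyoFB-Ter, 2.06% of 17771 genes were higher and 2.14% lower by this rule, and 1.95% and 2.03% of 3691 genes with at least 50 CPM. No elastic fibre gene of 21 was higher and 4 were lower, namely Mfap4, Mfap5, Ltbp1 and Ltbp4. Lox was at 0.948-fold (0.862 to 1.04) of MyoFB-Ter in the tdT-high gate and 0.738-fold (0.670 to 0.813) in the tdT-negative gate. Mfap4, a microfibril-associated protein, had 334 CPM in MyoFB-Int, 102 in MyoFB-IMR and 671 in MyoFB-Ter of the tdT-high gate, and 162, 58.1 and 318 CPM in the tdT-negative gate, so it was at 0.498-fold and 0.508-fold of MyoFB-Ter.

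Other matrix genes were mixed. Of 25 matricellular and proteoglycan genes, 10 were higher over MyoFB-IMR (Postn, Thbs1, Thbs2, Ccn1, Ccn2, Ccn4, Ccn5, Aspn, Ogn and Gpc4) and 2 lower (Prelp and Gpc6), with a median of 0.63. Thbs1, thrombospondin 1, had 632 CPM in MyoFB-Int, 225 in MyoFB-IMR and 836 in MyoFB-Ter of the tdT-high gate, and 376, 128 and 439 CPM in the tdT-negative gate. Of 24 collagens, 8 were higher over MyoFB-IMR, among them the fibril-forming Col1a1, Col1a2 and Col3a1 at log2 ratios of 0.62 to 0.76, and 4 were lower (Col8a1, Col13a1, Col23a1 and Col25a1). Over MyoFB-Ter, 2 collagens were higher and 5 lower. None of 18 basement membrane and integrin genes was higher over MyoFB-IMR and 4 were lower: Lama2, Nid2, Itga1 and Itga4. Of 21 matrix proteases and inhibitors, 5 were higher (Adamts1, Adamts2, Adamts5, Adamts9 and Pappa2) and Htra1 was lower.

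Most contractile genes were not 1.5-fold apart in both gates, but those that were had higher levels than MyoFB-IMR or lower levels than MyoFB-Ter. Over all genes with at least 10 UMIs, 2.6% were higher and 6.17% lower over MyoFB-IMR. Over MyoFB-Ter the shares were 2.06% and 2.14%. Of 26, 5 were higher over MyoFB-IMR and none lower (Cnn1, Tpm1, Lmod1, Des and Myocd), and over MyoFB-Ter none was higher and 4 were lower (Cnn1, Lmod1, Myocd and Itga8). Myocd, a coactivator that drives smooth muscle genes, had 139 CPM in MyoFB-Int, 60.0 in MyoFB-IMR and 365 in MyoFB-Ter of the tdT-high gate, and 90.3, 48.9 and 179 CPM in the tdT-negative gate. The best-known members did not pass the rule. Acta2, smooth muscle actin, had 923 CPM in MyoFB-Int, 839.6 in MyoFB-IMR and 1274 in MyoFB-Ter of the tdT-high gate, and 1596, 1008 and 1473 CPM in the tdT-negative gate, so its sign against MyoFB-Ter differed between gates (log2 -0.47 and 0.12). Myh11, smooth muscle myosin, had log2 ratios of 0.06 and 0.33 over MyoFB-IMR and of -0.34 and 0.15 over MyoFB-Ter.

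**Figure D4:**
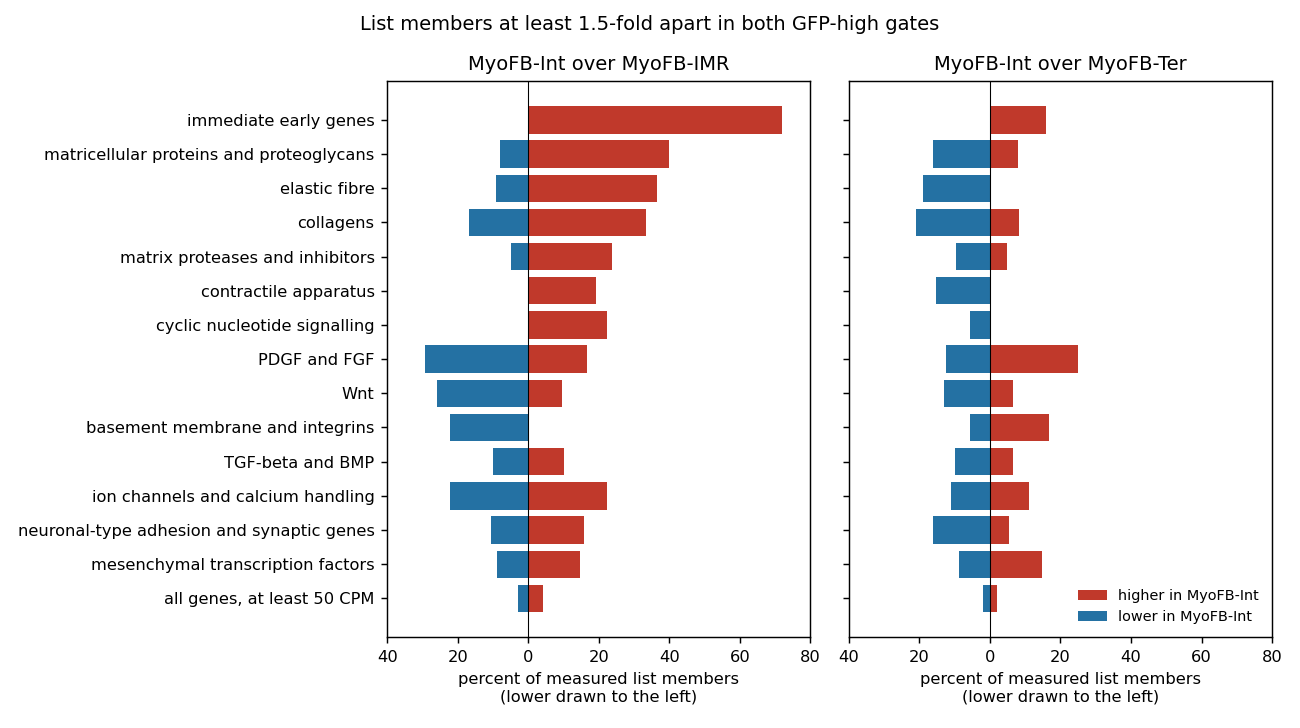
Percent of the measured members of 14 gene lists at least 1.5-fold apart in both GFP-high gates, beside all genes with at least 50 CPM. Red bars to the right are higher and blue bars to the left lower in MyoFB-Int, over MyoFB-IMR (left) and MyoFB-Ter (right). List members needed only 10 UMIs, so the filters differ. Over MyoFB-IMR the all-gene bar shows 4.11% higher and 2.77% lower, against 2.6% and 6.17% of all genes with at least 10 UMIs. Immediate early genes have the longest bar over MyoFB-IMR (18 of 25 higher), and PDGF and FGF genes are more often lower than higher over MyoFB-IMR (7 and 4 of 24) and more often higher than lower over MyoFB-Ter (6 and 3 of 24).

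Of 24 PDGF and FGF genes, 4 were higher over MyoFB-IMR, 7 lower and the others did not pass the rule. Among all genes with at least 10 UMIs, 2.6% were higher and 6.17% lower over MyoFB-IMR. Against MyoFB-Ter these shares were 2.06% and 2.14%. The ligand genes Pdgfc, Pdgfd, Fgf9 and Fgf18 were higher over MyoFB-IMR, while the receptors Pdgfra, Pdgfrb and Fgfr4, the ligand Fgf10 and the FGF response genes Spry4, Etv4 and Etv5 were lower. Fgf9 had 25.4 CPM in MyoFB-Int, 0.639 in MyoFB-IMR and 148 in MyoFB-Ter of the tdT-high gate, and 3.08, 0.196 and 11.3 CPM in the tdT-negative gate, so its level in the tdT-negative gate rests on few UMIs. Pdgfd, a ligand of PDGF receptor beta, had 71.2, 6.76 and 178 CPM, and 23.9, 2.16 and 48.8 CPM. Etv5, a transcription factor induced by FGF signalling, had 16.7, 45.9 and 3.11 CPM, and 27.5, 56.6 and 7.16 CPM. Against MyoFB-Ter 6 of 24 were higher (Pdgfra, Spry2, Spry4, Dusp6, Etv4 and Etv5) and 3 lower (Pdgfc, Pdgfd and Fgf9).

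Wnt pathway genes were more often lower than higher over MyoFB-IMR, with 8 lower and 3 higher of 31. All genes with at least 10 UMIs leaned the same way, at 6.17% lower and 2.6% higher. Over MyoFB-Ter the all-gene shares were 2.06% higher and 2.14% lower. Among the lower ones were Lef1 and Tcf7, transcription factors of the canonical pathway, the targets Notum and Lgr5, the inhibitors Wif1 and Sfrp2, and the ligands Wnt4 and Wnt5b. Lef1 had 69.8 CPM in MyoFB-Int, 223 in MyoFB-IMR and 23.0 in MyoFB-Ter of the tdT-high gate, and 146, 300.5 and 72.3 CPM in the tdT-negative gate. The ligands Wnt5a and Wnt9a and the receptor Lgr6 were higher. Wnt5a had 873, 475 and 919 CPM, and 595, 301 and 792 CPM, which placed MyoFB-Int between its neighbours. Over MyoFB-Ter, Lef1 and Tcf7 were higher, and Wnt9a, Sfrp1, Sfrp2 and Lgr6 lower.

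Genes better known from neurons and muscle made up several lists. Beside each stand the shares over all genes with at least 10 UMIs, 2.6% higher and 6.17% lower over MyoFB-IMR. Of 38 adhesion and synaptic genes, 6 were higher over MyoFB-IMR (Cdh4, Cntn4, Ncam1, Ncam2, Lrrtm4 and Fat3) and 4 lower, among them Cdh11, Negr1 and Tenm3. Of 27 ion channel and calcium genes, 6 were higher (Cacna1c, Cacna2d3, Kcnma1, Ryr2, Atp2b4 and Gja1) and 6 lower (Cacna1d, Kcnip1, Kcnip4, Piezo2, Ryr3 and Ano1). Of 28 axon guidance genes, 5 were higher (Slit3, Sema3d, Ntn1, Ephb2 and Efnb2) and 3 lower (Sema3a, Plxna2 and Dcc). The netrin gene Ntn1 had 163 CPM in MyoFB-Int, 46.2 in MyoFB-IMR and 260.5 in MyoFB-Ter of the tdT-high gate, and 75.7, 20.5 and 129 CPM in the tdT-negative gate, while Dcc, a receptor for netrins, was scarce and lower, at 0.822 CPM in MyoFB-Int and 5.85 CPM in MyoFB-IMR, and at 0.853 and 5.40 CPM in the tdT-negative gate. The phosphodiesterase genes Pde3a, Pde4b, Pde4d and Pde10a were the 4 higher of 18 cyclic nucleotide genes, with none lower.

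Of 34 mesenchymal transcription factor genes, 5 were higher over MyoFB-IMR (Prrx1, Sox9, Gata6, Klf2 and Klf4) and 3 lower (Twist1, Snai1 and Runx2). Runx2, a regulator of bone formation, had 6.63 CPM in MyoFB-Int, 30.0 in MyoFB-IMR and 1.04 in MyoFB-Ter of the tdT-high gate, and 16.6, 45.4 and 5.84 CPM in the tdT-negative gate. Gata6 had 15.2, 4.48 and 41.4 CPM, and 6.49, 1.72 and 22.2 CPM. Few cell cycle genes passed the rule, with 1 of 29 S phase genes higher and 1 lower over MyoFB-IMR, and 1 of 29 G2 and M phase genes lower. Over all 18483 genes with at least 10 UMIs, 2.6% were higher and 6.17% lower. The median log2 ratio was -0.19 for S phase genes and -0.28 for G2 and M phase genes, against -0.08 over all genes.

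Immediate early and stress response genes had the highest share of members apart from MyoFB-IMR. These are genes, such as Fos and Jun, whose transcription starts within minutes of a stimulus, and cell dissociation is known to be such a stimulus. Of 25 measured, 18 were higher over MyoFB-IMR and none lower, with a median log2 ratio of 0.90. Summed over the list they held 5589 CPM in MyoFB-Int, 3081 in MyoFB-IMR and 5128 in MyoFB-Ter of the tdT-high gate, and 5182, 2647 and 4356 CPM in the tdT-negative gate. Non-MyoFB cells held 3612 CPM in the tdT-high gate and 9621 CPM in the tdT-negative gate. Over MyoFB-Ter, 4 of 25 were higher (Egr3, Zfp36, Klf2 and Klf4) and none lower, with a median of 0.20.

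Fos, part of the AP-1 transcription factor, had 842 CPM in MyoFB-Int, 372 in MyoFB-IMR and 903 in MyoFB-Ter of the tdT-high gate, and 700.0, 266 and 599 CPM in the tdT-negative gate. Per cell it varied widely: the median tdT-high MyoFB-Int cell held 138 CPM, with 10% of cells above 2633 CPM. The median mitochondrial share was 3.28% in MyoFB-Int, 3.46% in MyoFB-IMR and 3.64% in MyoFB-Ter of the tdT-high gate, and 2.70%, 2.80% and 2.88% in the tdT-negative gate. The part of handling in the Fos and list values was not tested.

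**Figure D5:**
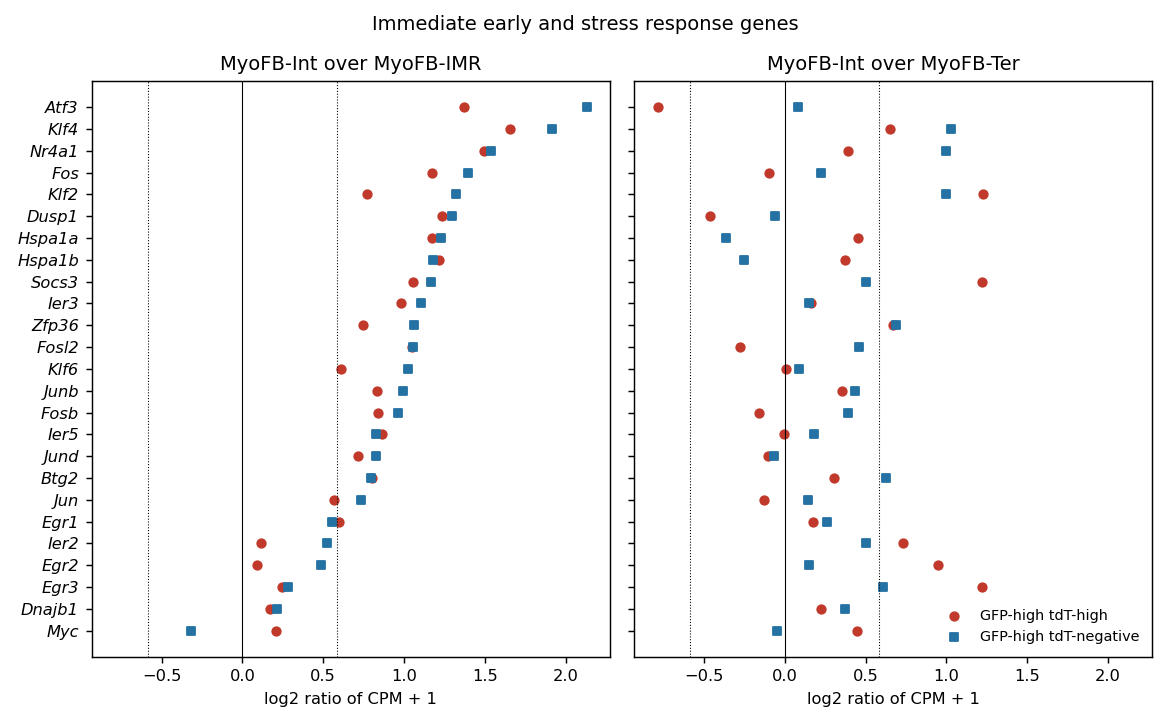
Log2 ratio of CPM plus 1 of 25 immediate early and stress response genes, MyoFB-Int over MyoFB-IMR (left) and over MyoFB-Ter (right), in the tdT-high gate (red circles) and the tdT-negative gate (blue squares); dotted lines mark 1.5-fold. Over MyoFB-IMR nearly all points lie right of 0 and 18 genes pass the line in both gates, while over MyoFB-Ter 4 do.

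The genes at least 1.5-fold above both neighbours in both GFP-high gates were Klf2, Zfp36 and Klf4, 3 of 3579 genes (0.0838%), and no gene was below both (0.0%). Only Tppp3, 1 of 3516 genes (0.0284%), lay 1.5-fold above MyoFB-Ter in one gate and 1.5-fold below it in the other, and against MyoFB-IMR no gene of 3625 did so (0.0%). Klf2 and Klf4 are Krüppel-like transcription factors and Zfp36 (tristetraprolin) is an RNA-binding protein that promotes decay of inflammatory mRNAs. Their promoters are shown because they are the only genes of this kind at that threshold. Each sequence is the 250 bases before the RefSeq start on GRCm38.p6, read 5′ to 3′ on the gene's strand, with every match to GGGCGG on either strand (the core of the GC box) in capitals. Klf2 lies at chr8:72318812-72319061 on the plus strand, Zfp36 at chr7:28379229-28379478 on the minus strand, and Klf4 at chr4:55532476-55532725 on the minus strand.
Klf2: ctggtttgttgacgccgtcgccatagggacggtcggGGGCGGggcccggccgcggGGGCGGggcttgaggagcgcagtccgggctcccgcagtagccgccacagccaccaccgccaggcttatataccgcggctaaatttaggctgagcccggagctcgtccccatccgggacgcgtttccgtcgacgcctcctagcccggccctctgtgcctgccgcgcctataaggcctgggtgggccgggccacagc
Zfp36: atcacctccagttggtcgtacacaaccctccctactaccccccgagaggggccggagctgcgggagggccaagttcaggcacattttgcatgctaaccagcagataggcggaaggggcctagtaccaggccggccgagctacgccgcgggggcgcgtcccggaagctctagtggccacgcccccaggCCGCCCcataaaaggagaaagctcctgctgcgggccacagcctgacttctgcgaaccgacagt
Klf4: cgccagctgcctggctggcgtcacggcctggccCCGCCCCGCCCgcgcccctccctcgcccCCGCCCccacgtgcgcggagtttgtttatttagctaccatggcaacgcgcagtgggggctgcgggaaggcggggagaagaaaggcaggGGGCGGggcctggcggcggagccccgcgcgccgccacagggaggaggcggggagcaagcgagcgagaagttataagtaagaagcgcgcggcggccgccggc
GGGCGG matched 2 times in Klf2, 1 time in Zfp36 and 4 times in Klf4, and 32.7% of 32851 mouse promoter windows of the same length hold it. The CArG box, bound by serum response factor and searched as a consensus by name, was found in Zfp36 only, starting 58 bases before the start and overlapping its GGGCGG match, and 1.47% of windows hold it. TATAAA (12.4% of windows), the AP-1 motif TGANTCA (6.75%) and the CRE motif TGACGTCA (1.55%) were not found in these windows.

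Klf2 had 115 CPM in MyoFB-Int, 66.9 in MyoFB-IMR and 48.4 in MyoFB-Ter of the tdT-high gate, and 139.5, 55.1 and 69.5 CPM in the tdT-negative gate. Klf4 had 75.4, 23.2 and 47.6 CPM, and 57.2, 14.4 and 27.5 CPM. Zfp36 had 225, 134 and 141 CPM, and 197, 93.8 and 122 CPM. In the 22 MyoFB-Int cells of the GFP-low gate the levels were 155, 157 and 318 CPM of Klf2, Klf4 and Zfp36, against 34.1, 24.1 and 48.2 CPM in 21 MyoFB-IMR and 2.09, 16.7 and 27.2 CPM in 23 MyoFB-Ter cells. Pooled non-MyoFB cells of the tdT-negative gate had more of each (246, 309 and 399 CPM). By type, AdvFB had 335, 486 and 562 CPM, and MatFB-Im,Cuff had 258, 280 and 412 CPM. The dividing types had less, at 82.3, 38.4 and 126 CPM in DivFB-G2M and 108, 48.6 and 121 CPM in DivFB-S/G2M. For Klf4 over DivFB-S/G2M the interval of the ratio, 0.962 to 1.45, held no difference. MyoFB-Int thus stands above its MyoFB neighbours for these genes, but not above all other fibroblasts.

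The position above MyoFB-Ter depended on which cells were summed. Cells could be split by sex, since UMIs of 4 Y-linked genes were seen without Xist in 534 of 801 tdT-high and 848 of 1324 tdT-negative MyoFB-Int cells, and Xist without them in 161 and 302. In the Xist cells alone, Klf2 over MyoFB-Ter was at log2 0.34 in the tdT-high gate and 0.22 in the tdT-negative gate, Klf4 at 0.22 and 0.99, and Zfp36 at 0.88 and 0.42, so none of the 3 passed, and the only gene above both was Cebpd. In the Y-linked cells alone all 3 passed, with Klf2 at 2.48 and 1.67. The MyoFB-Ter side of these ratios rests on 60 tdT-high and 69 tdT-negative Xist cells, and on 96 and 182 Y-linked cells. Klf2 of MyoFB-Ter was at 111 and 148 CPM in Xist cells and at 18.9 and 39.9 CPM in Y-linked cells. The ratios of the 3 genes over MyoFB-IMR stayed between 0.69 and 2.09 in all 4 subsets. When MyoFB-Ter was limited to cells with a Pdgfra UMI, Klf2 and Klf4 passed and Zfp36, at 0.44 and 0.58, did not.

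MyoFB-Int was further from the non-MyoFB types. In the tdT-negative gate the highest over all non-MyoFB cells included Kctd16, Prkcq, P3h2, Mustn1, Tagln, Ttll7, Nrxn3, Asic2 and Des. Tagln, transgelin, a smooth muscle protein that binds actin, had 2030.2 CPM in MyoFB-Int and 293 CPM in non-MyoFB cells, a ratio of 6.92 (6.72 to 7.13). Nrxn3, a neurexin known from synapses, had 2965 and 443 CPM. The lowest included Dcn, Pid1, Ebf1, Clec3b, Serpinf1, Ptn, Abca8a, Maf and Itgbl1, and Dcn, the matrix proteoglycan decorin, had 8.09 CPM in MyoFB-Int and 3219.9 CPM in non-MyoFB cells.

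By list, contractile genes were higher in MyoFB-Int for 19 of 26 members and lower for 2 in the tdT-negative gate, where 11.0% of 20028 genes were 1.5-fold higher and 15.1% lower. Elastic fibre genes went the other way, with 3 of 23 higher and 15 lower, and collagens with 1 of 24 higher and 21 lower. In the tdT-high gate, whose non-MyoFB cells number 53, the summed levels were higher in MyoFB-Int. They stood at 20455 CPM of elastic fibre genes in MyoFB-Int and 8049 CPM in non-MyoFB cells, and at 11192 and 9335 CPM of collagens. The tdT-negative sums were 11075 and 12354 CPM of elastic fibre genes and 7907 and 41957 CPM of collagens. Eln, whose levels are given above, made up most of the elastic fibre sum of MyoFB-Int in both GFP-high gates. A sum thus follows Eln more than a count of members does, and the 2 measures are not alike. The non-MyoFB cells of these gates differ in make-up. In the tdT-high gate, 15 of 53 were DivFB-G2M, 11 DivFB-S and 16 DivFB-S/G2M, all dividing types, and 4 were AdvFB. In the tdT-negative gate, 328 of 688 were AdvFB and 110 MatFB-Im,Cuff. The part of this make-up in the sums was not tested. All 14 adventitial fibroblast markers and 15 of 16 alveolar fibroblast markers were lower in MyoFB-Int of the tdT-negative gate. The marker sums of other lineages were low in MyoFB-Int of the tdT-high and tdT-negative gates, at 6.03 and 15.1 CPM for 10 epithelial genes, 33.4 and 56.9 CPM for 10 endothelial genes, 16.8 and 23.8 CPM for 10 immune genes and 0.712 and 0.890 CPM for 5 mesothelial genes. Epcam stood at 0.0548 and 0.223 CPM, and Ptprc at 0.110 CPM in the tdT-high gate and 0 in the tdT-negative gate, where a count of 0 allows up to 0.111 CPM (3 UMIs).

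Type by type, MyoFB-Int of the tdT-negative gate differed by at least 2-fold from AdvFB in 563 genes higher and 555 lower of 4353 (12.9% and 12.7%), and from MatFB-Im,Cuff in 491 higher and 549 lower of 4393 (11.2% and 12.5%). It was nearer the dividing type DivFB-G2M, with 175 higher and 207 lower of 4380 (4.0% and 4.73%), and DivFB-S/G2M, with 128 higher and 432 lower of 4470 (2.86% and 9.66%). Egfem1 had 11176 CPM in MyoFB-Int, against 5001 CPM in DivFB-G2M, 7987 CPM in DivFB-S/G2M, 344 CPM in MatFB-Im,Cuff and 139 CPM in AdvFB. Eln was lower in MyoFB-Int, at 7131 CPM, than in MatFB-Im,Cuff, at 10325 CPM. Mki67, a proliferation marker, had 28.2 CPM in MyoFB-Int, against 496 CPM in DivFB-G2M.

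Between the GFP-high gates, MyoFB-Int of the tdT-high gate had 53 of 3953 genes at least 2-fold higher (1.34%) and 17 lower (0.43%) than MyoFB-Int of the tdT-negative gate. The highest were TDT, the sorted reporter, at 64.1 CPM in the tdT-high and 6.05 CPM in the tdT-negative gate, then Rgs5, Gt(ROSA)26Sor (the locus that carries the reporter), Thrb, Aspn and Gja1. Rgs5, a regulator of G protein signalling often used to mark pericytes, was at 147 against 16.5 CPM, 8.95-fold (8.09 to 9.91). The 12 pericyte markers summed to 481 CPM in tdT-high and 315 CPM in tdT-negative MyoFB-Int with none at 0. Rgs5 is one of the 12, and its 147 and 16.5 CPM are part of these sums. The part of the pericyte markers in the gate difference was not tested. Aspn was 6.23-fold (6.07 to 6.39) and Eln 2.20-fold (2.19 to 2.22) higher. The lowest were Piezo2, Tafa1, Zmat4, Cygb, Cd34 and Dab1, with Piezo2 at 32.5 against 119 CPM and Cd34, a surface glycoprotein, at 92.7 against 219 CPM.

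Every one of the 53 higher genes was also higher in MyoFB-Ter than in MyoFB-IMR within the tdT-negative gate, and every one of the 17 lower genes was lower there. Over all 3953 genes, 49.7% were higher in MyoFB-Ter. Of the 53, 42 belonged to the 130 genes 2-fold higher in MyoFB-Ter in both gates (79.2% of the 53 and 32.3% of the 130), and of the 17, 16 belonged to the 118 genes higher in MyoFB-IMR (94.1% and 13.6%). Among all 3953 genes tested, 3.11% belonged to the MyoFB-Ter list and 2.43% to the MyoFB-IMR list. The gate contrast shares no cells with these comparisons of MyoFB-Ter and MyoFB-IMR. It shares the tdT-negative library with the one within that gate. With the lists of 130 and 118 genes, which required 2-fold in both gates, it shares both GFP-high libraries. Label, gate and library cannot be told apart here, and the tdT-high and tdT-negative cells may differ in any of them.

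The genes with the highest variance to mean ratio over MyoFB-Int cells were mostly abundant ones, and only some separated its neighbours. This ratio can itself rise with the mean and was not corrected for it, so the ranking favours abundant genes. Among 3371 genes the variance of thinned counts over cells was a median of 1.17 times the mean in both gates. The 10 with the highest ratio in both were Rn18s-rs5, Malat1, Mgp, Eln, Aspn, Nrxn3, Egfem1, Fos, Rbfox1 and Fmo2. Of these 10, Mgp, Eln, Aspn and Fos are among the genes 2-fold apart between MyoFB-Ter and MyoFB-IMR in both gates. Aspn had a ratio of 14.3 in the tdT-high and 12.2 in the tdT-negative gate. The median MyoFB-Int cell had 870.1 CPM of Aspn in the tdT-high gate and 0 in the tdT-negative gate, where the upper 10% of cells passed 835 CPM. For Eln, 91.6% of tdT-high and 83.4% of tdT-negative MyoFB-Int cells lay above the median MyoFB-IMR cell of their gate, and 63.5% and 21.8% above the median MyoFB-Ter cell. For Aspn, 86.5% and 38.4% lay above the median MyoFB-IMR cell, and 3.75% and 10.9% above the median MyoFB-Ter cell. For Mgp, 10.6% and 18.4% lay above the median MyoFB-IMR cell. The overlap with each neighbour thus differed by gene and gate, and was small for Aspn with MyoFB-Ter.

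The 22 MyoFB-Int cells of the GFP-low gate had 10284 CPM of Eln, 1217 CPM of Aspn, 303 CPM of Cdh4 and 105 CPM of Pappa2. In that gate MyoFB-IMR had 3859, 36.1, 96.4 and 20.1 CPM of the same genes, and MyoFB-Ter 3019, 4469, 286 and 16.7 CPM. Pdgfra was at 301 CPM in MyoFB-Int, 502 in MyoFB-IMR and 2.09 in MyoFB-Ter, so MyoFB-Int cells sorted as GFP-low had a Pdgfra level between those of tdT-high and tdT-negative MyoFB-Int.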

How the data were processed

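Per the labels' protocols, lungs were dissociated with dispase and collagenase at 37 °C, live cells were sorted and 10x 3' v3.1 libraries were made. Per the submitters' processing notes, Cell Ranger 7.0.0 and mm10 were used. The authors deposited raw UMI counts per gene and cell, with a cell type and gate for each cell. The authors also deposited the percent of mitochondrial UMIs per cell. The labels do not say how cell types were called or doublets treated. No cell was filtered here.

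Counts were summed per type and gate and divided by the sum (CPM), with Python 3.11.15, numpy 2.4.6, pandas 2.3.3 and scipy 1.17.1. Log2 ratios and the fold thresholds use CPM + 1, while printed fold values and their intervals use CPM with nothing added. Intervals for ratios are exact conditional binomial, for levels exact Poisson and for shares Clopper-Pearson, and all cover counting error only. Each gate is 1 library, so no test was run. Named genes are the 5 markers, 11 further genes always named, the 10 highest and lowest per comparison by the smaller log2 ratio of both GFP-high gates (6 between gates), and examples of each list. A few genes that the rule or lists include are not reported here. The computation was checked on simulated counts. Gene positions come from GENCODE M21 (GRCm38, 30176 of 31730 symbols matched). The members, gene lists and rule were chosen with earlier results of these data known. Alternatives included edgeR 4.0.16 TMM and DESeq2 1.42.0 size factors.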

Additional observations from a re-analysis of the deposited data

Results flagged for a closer look

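Tppp3, a tubulin polymerization promoting family member, stood out because its MyoFB-Int level lay on opposite sides of MyoFB-Ter in the GFP-high gates. It had 119.8 CPM in MyoFB-Int and 79.5 CPM in MyoFB-Ter of the tdT-high gate (log2 ratio 0.586), and 81.2 CPM in MyoFB-Int and 137.9 CPM in MyoFB-Ter of the tdT-negative gate (-0.756). The difference was not tested, since each gate is 1 library. It was the only gene of 3516 with 1.5-fold ratios of opposite sign over MyoFB-Ter (0.0284%), and over MyoFB-IMR there was none of 3625.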

How the results depend on the processing

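Of 176 log2 ratios of named genes under 13 alternatives, 8 changed sign under at least 1, all of them within 0.20 of 0 at the start and none at least 1.5-fold. They were Eln, Tagln and Csmd1 over MyoFB-Ter in the tdT-high gate, Pappa2, Tagln, Csmd1 and Mki67 over MyoFB-Ter in the tdT-negative gate, and Hhip over MyoFB-IMR there. No scaling shifted the median gene by more than 0.1 on the log2 scale. The number of genes above both neighbours was 3 and moved to 5 with TMM and with DESeq2 scaling (adding Cebpb and Cebpd), to 6 with a minimum of 10 CPM, to 10 with no minimum, to 6 in cells with Y-linked UMIs and to 1 in cells with Xist. The number below both was 0 and became 3 with no minimum. Counts of genes 2-fold apart grew as the minimum fell. With 10 CPM they were 219 higher and 266 lower over MyoFB-IMR in the tdT-high gate and 148 and 146 in the tdT-negative gate, 243 and 325 over MyoFB-Ter in the tdT-high gate and 57 and 87 in the tdT-negative gate, 507 and 1015 over non-MyoFB cells, and 108 and 59 between gates. With no minimum they were 349 and 715, 215 and 348, 567 and 586, 150 and 185, 749 and 1826, and 188 and 91 in the same order. In cells with Xist, 42 were higher and 72 lower over MyoFB-Ter in the tdT-negative gate. MyoFB-Ter cells with a Pdgfra UMI gave 14 higher and 31 lower in that gate, against 90 and 117 in the tdT-high gate. The sex split and the Pdgfra limit were chosen after seeing the data. An alternative with only the largest deposited cluster was not run, because that column holds the gate. No paired analysis was possible because each gate has 1 library. A count of 0 in MyoFB-Int allows up to 0.164 CPM in the tdT-high, 0.111 in the tdT-negative and 5.82 in the GFP-low gate.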

Other observations

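Some genes of the IGF axis differed from MyoFB-IMR in both GFP-high gates. Of 17 measured members, 3 were higher over MyoFB-IMR (Igfbp2, Igfbp5 and Pappa2) and Stc1 was lower. Over all genes with at least 10 UMIs, 2.6% were higher and 6.17% lower. Igfbp5, an IGF-binding protein known to be cut by Pappa2, had 603 CPM in MyoFB-Int, 203 in MyoFB-IMR and 251 in MyoFB-Ter of the tdT-high gate, and 496, 85.7 and 563 CPM in the tdT-negative gate. Stc1 is known to inhibit the related protease Pappa. Of 17 glycolysis genes none was higher over MyoFB-IMR and none lower. Beside the shares over all genes, 2.6% and 6.17%, a list of this size does not stand out.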
